A study of Mus musculus with 10 samples.

Results

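The genes described here are the cytosolic aminoacyl-tRNA synthetases and a set of enzymes and carriers that make amino acids or bring them into the cell, measured in mouse cortical neurons under a proteasome inhibitor. The 37 genes were chosen by function, from what each protein does, at a time when the changes of many of them with lactacystin were already known from these same arrays. Counts of members that rose or fell are therefore descriptions, and no p-value is given for the list. Of the 37, 20 are synthetases, 9 are enzymes of amino acid and one-carbon synthesis and 8 are transporters. A probe set named for 1 gene alone was in both deposited tables for 32 of them, out of 7417 such genes in all. Of these 32, 30 lay above the filter on low signals and were tested (18 synthetases, 6 synthesis enzymes, 6 transporters), while the transporters Slc7a1 and Slc7a11 lay below it. Farsa, Phgdh and Shmt2 had a probe set on the newer array design only, and no probe set is named for Dars and Pycr1 in the tables used here.

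Primary cultures were prepared from the cortex of foetal Swiss albino mice of gestation day 15 to 16, and on day 5 in culture received 1 µM lactacystin, which blocks the proteasome, the machine that degrades tagged proteins. There were 2 control arrays and 3 lactacystin arrays at 24 h, and the same numbers at 48 h. The labels give no agent for the controls, do not say whether these received the solvent DMSO, and do not say whether replicates came from separate cultures. The p-values therefore rest on the differences among these particular arrays, which may be technical only. One control and 1 lactacystin array at each time were of the design U74A, and the other 6 arrays were of its revision, U74Av2.

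An aminoacyl-tRNA synthetase joins an amino acid to its tRNA, which carries it to the ribosome, and most of the genes for the cytosolic enzymes are named by the letter of the amino acid. When an amino acid runs short, uncharged tRNA activates the kinase GCN2 (gene Eif2ak4). Phosphorylation of the initiation factor eIF2 by this kinase, or by PERK (Eif2ak3) under stress of the endoplasmic reticulum, slows general translation and favours translation of ATF4. This transcription factor binds amino acid response elements together with C/EBP family partners, and many synthetases, Asns, the serine enzymes, Mthfd2 and the transporters Slc7a11, Slc7a5 and Slc3a2 are known targets of it. Neurons take up many amino acids from the medium or from glia, so the balance between own synthesis and import is of interest in them.

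The composite element of C/EBP and ATF factors has the core TGATGNAA, read on either strand (TTNCATCA on the other). RefSeq promoter entries (assembly GRCm38.p6) were found under the listed symbol for 27 of the 37 members, in 29 windows. Cars, Hars, Lars, Nars, Rars, Slc1a5, Slc7a3, Slc7a5, Vars and Wars had none under that symbol and were not searched. In the 250 bases before the gene start this core was found in 6 members, Aars, Asns, Gars, Pycr1, Slc7a11 and Tars, and it was found in 3.91% of all 27025 genes with an entry (3.45% of 32851 windows). The last 130 bases before the start are printed for the 5 of these that have a probe set in both tables, each 5′ to 3′ on the gene's own strand, with the core in capitals. The positions are chr6:7693210-7693339 (minus strand) for Asns, chr8:111033712-111033841 (plus) for Aars, chr6:55037871-55038000 (plus) for Gars, chr15:11399659-11399788 (minus) for Tars and chr3:50443614-50443743 (minus) for Slc7a11.
Asns: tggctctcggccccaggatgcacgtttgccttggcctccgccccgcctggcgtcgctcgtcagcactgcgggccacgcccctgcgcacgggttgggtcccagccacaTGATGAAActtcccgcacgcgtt
Aars: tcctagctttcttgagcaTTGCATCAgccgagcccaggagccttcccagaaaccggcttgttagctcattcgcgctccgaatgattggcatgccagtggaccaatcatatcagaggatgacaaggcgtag
Gars: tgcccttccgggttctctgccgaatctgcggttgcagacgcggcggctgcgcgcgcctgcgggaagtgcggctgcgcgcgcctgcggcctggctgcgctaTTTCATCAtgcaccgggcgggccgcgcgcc
Tars: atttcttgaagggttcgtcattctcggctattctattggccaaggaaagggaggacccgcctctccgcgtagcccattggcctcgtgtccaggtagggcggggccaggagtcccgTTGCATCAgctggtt
Slc7a11: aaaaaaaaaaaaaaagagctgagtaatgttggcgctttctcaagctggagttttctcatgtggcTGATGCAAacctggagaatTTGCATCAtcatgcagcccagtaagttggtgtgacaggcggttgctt
The core began 23 bases before the start in Asns, 112 in Aars, 30 in Gars and 15 in Tars. Slc7a11 held it at 66 and again at 47 bases before the start, in opposite orientations. A match of letters is a description of these windows and not a measured site.

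The signal is the deposited summary intensity of a probe set after each array was scaled to a trimmed mean of 500. Changes are differences of log2(signal + 32) with their standard error (SE), adjusted for array design. They understate the change of low genes, and all tests are limma's moderated two-sided test with Benjamini-Hochberg adjustment over 6984 probe sets at a threshold of 0.05. The first principal component held 45.3% of the variance, with a mean of -24.3 over the U74A arrays and 16.2 over the U74Av2 arrays. Replicate number largely coincides with array design, so that their parts in this cannot be told apart. Single arrays are therefore compared within a design. In every list of values the U74A arrays come first, and each control value stands before the lactacystin values of its design. All 9 neuron markers that were in both tables lay above the filter. Their summed signal ran from 27455 to 34697 in controls and 18906 to 23206 with lactacystin at 24 h, and from 33188 to 36524 and 21851 to 30283 at 48 h. These ranges, like those of the other markers below, run over arrays of both designs and are not adjusted for design. Of the 9 neuron markers, 4 fell at 24 h and 3 at 48 h, and none rose. Not all went the same way: 7 were below 0 at 24 h and 8 at 48 h, while Nefm stood at 0.41 and 0.43. Over all probe sets 8.15% were called higher and 6.63% lower at 24 h, and 6.76% and 3.57% at 48 h. In bulk RNA, fewer neurons and less RNA per neuron cannot be told apart, and what moved these markers was not tested. Among markers of other cells, the summed signal of 8 astrocyte and radial glia genes ran from 11948 to 17821 and 11370 to 16224 at 24 h, and from 12287 to 18327 and 15295 to 18551 at 48 h (7 tested, 1 rose and 2 fell at 24 h, 2 rose at 48 h). That of 11 microglial genes ran from 652 to 956 and 800 to 1509 at 24 h, and from 558 to 1150 and 1072 to 1721 at 48 h (7 tested, 1 rose at 24 h, 3 rose at 48 h), with Aif1, C1qb, Itgam and Ptprc below the filter. That of 8 fibroblast and mural genes ran from 1832 to 1872 and 1920 to 3244 at 24 h, and from 1757 to 1758 and 2745 to 4500 at 48 h (7 tested, 1 rose at 24 h, 2 rose at 48 h). Oligodendrocyte and endothelial markers had 2 tested genes each, of which none passed the threshold against control (endothelial, 1 at unadjusted p under 0.05, at 48 h). No marker was listed at 0. The part of these cells in the results on amino acid genes was not tested.

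After 24 h of lactacystin, 6 of the 30 tested genes rose and none fell (limma; 0 lower and 14 higher at unadjusted p under 0.05). The 6 were the synthetases Rars, Sars and Tars, the serine enzyme Psph, and the transporters Slc3a2 and Slc7a3. Over all probe sets tested, 14.8% were called in this comparison, 8.15% higher and 6.63% lower. The median change of the 30 genes was 0.27 on the log2 scale, that of the 18 synthetases 0.29, that of the synthesis enzymes 0.09 and that of the transporters 0.09, and the median over all 6984 probe sets was -0.03. Within both designs, every lactacystin array lay above the control array for 16 genes and below it for 4, where 27% and 33.3% of all probe sets did so.

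After 48 h, 1 of the 30 genes, the serine enzyme Psat1, rose and 6 fell. These were the synthetases Mars1, Nars and Yars, the enzymes Asns and Mthfd2, and the transporter Slc7a3. Over all probe sets 10.3% were called, 6.76% higher (472) and 3.57% lower (249). The median change was -0.16 for the 30 genes, -0.23 for the synthetases, 0.04 for the synthesis enzymes and -0.32 for the transporters, against 0.04 over all probe sets. With arrays scaled to a common median the median of all probe sets moved to -0.11 and the calls over all probe sets to 286 higher and 639 lower. Under that scaling 12 of the 30 genes fell and 1 rose, and the median of the synthesis enzymes turned to -0.11, as it did to -0.06 under quantile normalization. Every lactacystin array lay below its control for 15 genes and above it for 5 within both designs (21.9% and 31.8% of all probe sets).

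**Figure D1:**
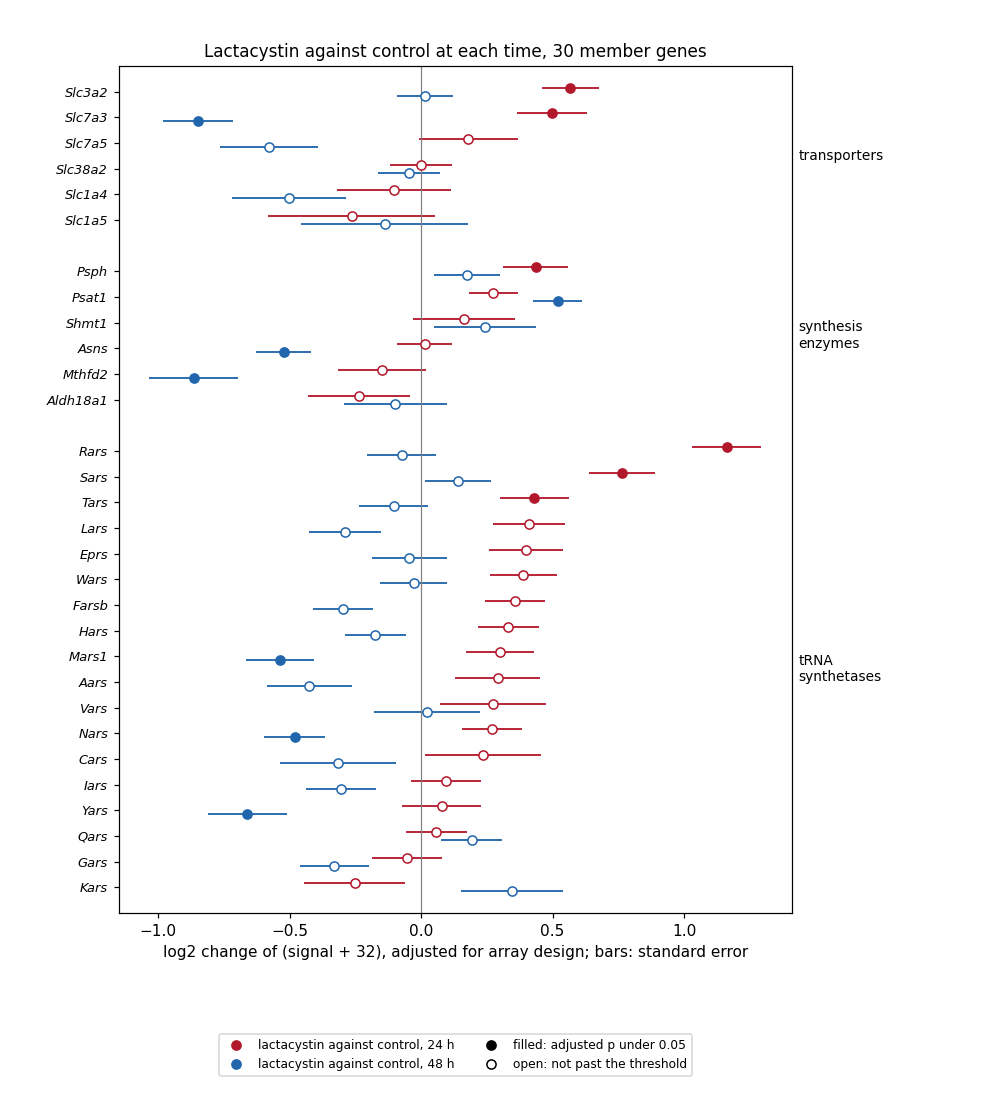
Log2 change of lactacystin against control at 24 h (red) and at 48 h (blue) for the 30 tested genes, adjusted for array design, with bars of 1 SE. Filled points passed the adjusted p of 0.05. At 24 h filled points lie to the right of 0, from 0.43 (Tars) to 1.16 (Rars), and at 48 h they lie to the left, from -0.86 (Mthfd2) to -0.48 (Nars), except Psat1 at 0.52.

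The change in effect between the times was tested directly, as the effect at 48 h minus the effect at 24 h. It was below 0 for 24 of the 30 genes, with a median of -0.52, and passed the threshold for Slc7a3, Rars and Mars1. No gene passed in the other direction (limma; 1 gene, Kars, at unadjusted p under 0.05). Of all probe sets 1.29% were called, 0.444% higher (31) and 0.845% lower (59), and the median of all was 0.07. With arrays scaled to a common median that median was -0.10, the calls were 19 higher and 135 lower, and 10 of the 30 genes passed, all lower. For Psat1, the difference was 0.24 ± 0.13 (adjusted p = 0.387), and its rise at 48 h is therefore not shown to differ from its change at 24 h. Nars, at -0.75 ± 0.16 (adjusted p = 0.0506), missed the threshold.

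Between the lactacystin groups themselves, 22 of 30 genes were lower at 48 h than at 24 h and none was higher (limma; 0 higher at unadjusted p under 0.05). Of all probe sets 11.5% were called, 6.19% higher (432) and 5.31% lower (371), and with a common median 224 higher and 526 lower. The 22 were 14 of 18 synthetases, 4 of 6 synthesis enzymes and 4 of 6 transporters, and the median over the 30 was -0.63, against 0.04 for all probe sets. Every 48 h array lay below every 24 h array within both designs for 23 genes and above for none (16.6% and 23% of all probe sets). In the controls over the same interval no member passed the threshold (limma, 0 called of 30, 0 higher and 7 lower at unadjusted p under 0.05). Of all probe sets 0% were called, with 390 at unadjusted p under 0.05. With 2 arrays at each time this does not show that the members stayed level, and control changes reached -0.75 (Aldh18a1) and -0.74 (Slc7a3). The control median was nevertheless -0.22 for the 30 genes and -0.03 over all probe sets, with 24 of the 30 below 0. The control arrays of both times lay apart within both designs for 19 genes in the lower and 1 in the higher direction (27.7% and 21.6% of all probe sets). These comparisons share arrays with each other, so they are not separate evidence of a direction. Between the lactacystin groups markers of other cells moved too. Of the 7 tested astrocyte and radial glia markers 3 rose (Aqp4, Gfap and Glul) and all 7 were above 0, with a median of 0.56. Of 7 fibroblast and mural markers 2 rose (Acta2 and Tagln, median 0.50), of 7 microglial markers 1 rose (C1qa, median 0.43), and of 2 oligodendrocyte lineage markers 1 rose (Pdgfra). Neuron markers went both ways, with 2 of 9 higher (Dcx and Stmn2), 1 lower (Eno2) and a median of -0.04. Their part in the falls of the member genes was not tested.

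**Figure D2:**
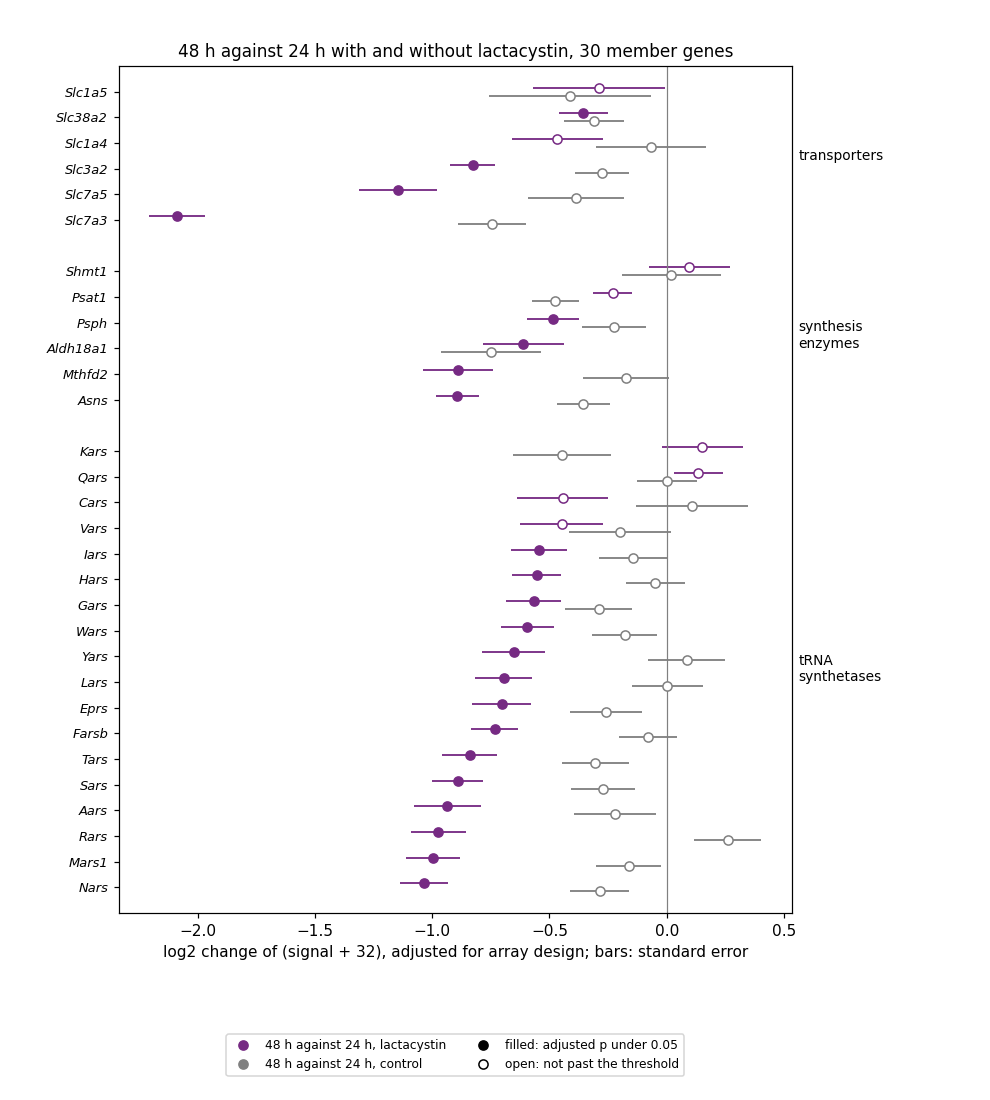
Log2 change from 24 h to 48 h under lactacystin (purple) and in the controls (grey) for the 30 tested genes, adjusted for array design, with bars of 1 SE. Filled points passed the adjusted p of 0.05. Under lactacystin 22 filled points run from -2.09 (Slc7a3) to -0.36 (Slc38a2), and none of the grey control points is filled.

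The calls rested on few arrays. At 24 h, only those of Rars and Sars held without each of the 10 arrays in turn, and the count of members that rose was 2 without control replicate 1, and 3 without lactacystin replicate 2 or replicate 3. At 48 h no call held without each array in turn, and the count was 1 without control replicate 1 and 2 without control replicate 2. The difference between the times had 0 calls without 48 h control replicate 1, 1 without 48 h control replicate 2 or either control of 24 h, and 7 without lactacystin 24 h replicate 1. Of the 22 falls between the lactacystin groups 16 held without each array in turn.

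Among the synthetases, the arginine enzyme gene Rars had the highest rise at 24 h. Rars gave 900.4 in the control against 1726 with lactacystin on U74A, and 955 against 2452 and 2603 on U74Av2 at 24 h. Its 48 h signals were 875 against 913 on U74A, and 1424 against 1199.8 and 1269.8 on U74Av2. Lactacystin arrays stood well above the control of their design at 24 h. At 48 h they stood slightly above it on U74A and below it on U74Av2. The rise at 24 h was 1.16 ± 0.13 (adjusted p = 0.000203), the change at 48 h -0.07 ± 0.13 (adjusted p = 0.793), and the difference between the effects -1.24 ± 0.19 (adjusted p = 0.00981). From 24 h to 48 h under lactacystin Rars fell by 0.97 ± 0.12 (adjusted p = 0.000426), while the control change was 0.26 ± 0.14 (adjusted p = 0.891). The difference did not pass without control 24 h replicate 2 (adjusted p = 0.0641), control 48 h replicate 1 (0.0507) or control 48 h replicate 2 (0.0650).

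Sars, for serine, and Tars, for threonine, rose beside it at 24 h. Sars gave 529.8 in the control against 923 with lactacystin on U74A, and 871 against 1479.8 and 1447 on U74Av2, a rise of 0.76 ± 0.12 (adjusted p = 0.00220). At 48 h Sars gave 455 against 561 on U74A, and 684 against 764 and 675 on U74Av2, a change of 0.14 ± 0.12 (adjusted p = 0.551). Its lactacystin arrays thus lay above the control of their design at 24 h, while at 48 h those of U74Av2 lay on both sides of it. Tars gave 722 in the control against 882 with lactacystin on U74A, and 833 against 1206 and 1233 on U74Av2 at 24 h. At 48 h Tars gave 529 against 565 on U74A, and 729.6 against 672 and 562 on U74Av2. Lactacystin arrays stood above the control on both designs at 24 h, and above it on U74A and below it on U74Av2 at 48 h. For Tars the rise at 24 h was 0.43 ± 0.13 (adjusted p = 0.0491) and the change at 48 h -0.10 ± 0.13 (adjusted p = 0.697). This call for Tars was close to the threshold and was lost without either control of 24 h (adjusted p = 0.111 and 0.327), either control of 48 h (0.0541 and 0.0555), lactacystin 24 h replicate 2 or 3 (0.130 and 0.139) or lactacystin 48 h replicate 1 (0.0603). Under lactacystin Sars fell by 0.89 ± 0.11 (adjusted p = 0.000498) and Tars by 0.84 ± 0.12 (adjusted p = 0.00112) from 24 h to 48 h, with control changes of -0.27 ± 0.14 and -0.30 ± 0.14, neither past the threshold.

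**Figure D3:**
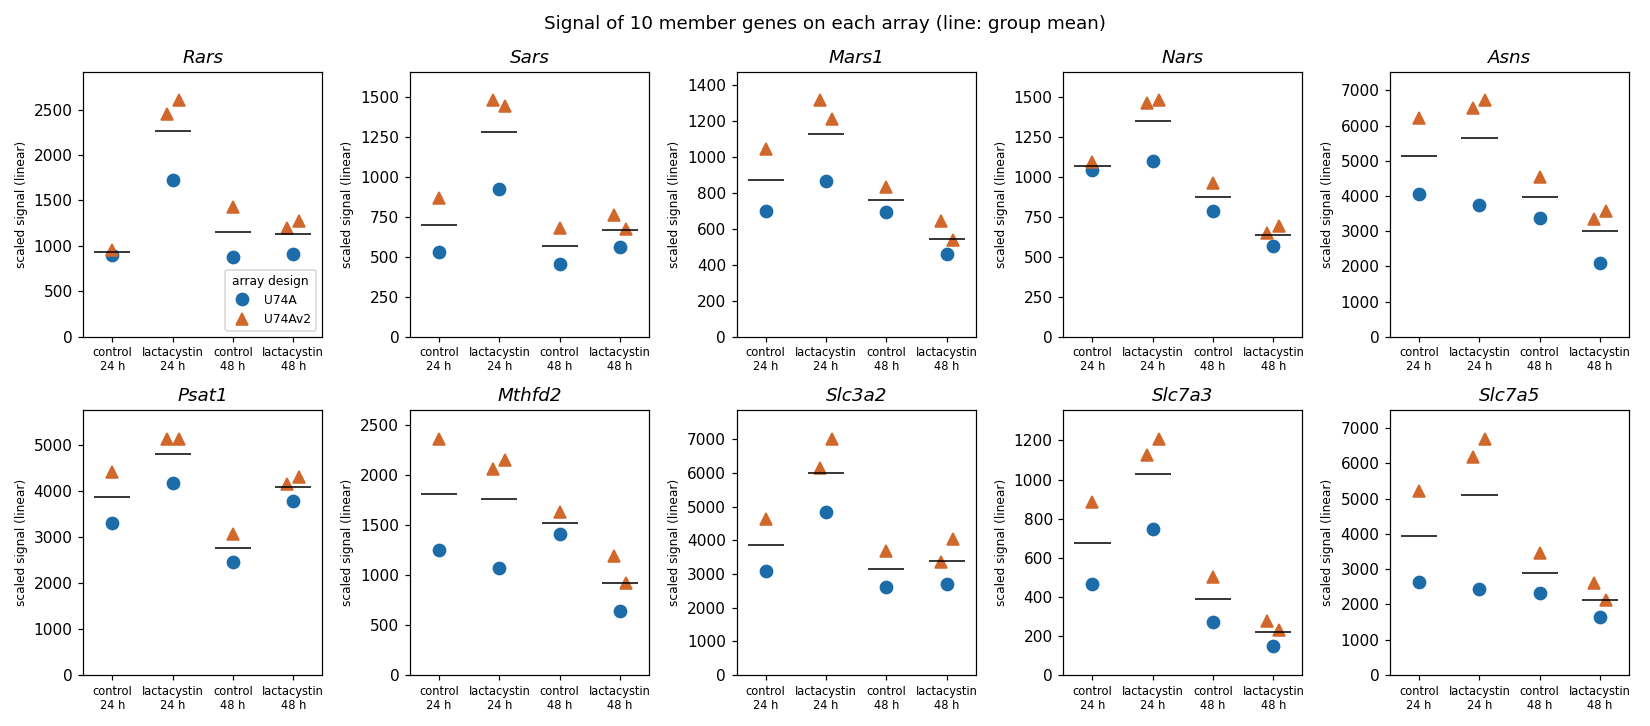
Scaled signal (linear axis from 0) of 10 member genes on each of the 10 arrays, by group, with circles for U74A and triangles for U74Av2. The line is the mean over the arrays of both designs, of which the lactacystin groups hold a larger share of U74Av2 than the controls, so arrays are best read within a symbol; Rars at 24 h with lactacystin stands at 1726 (circle), 2452 and 2603 (triangles), above controls at 900.4 and 955.

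Mars1, Nars and Yars, which charge tRNA with methionine, asparagine and tyrosine, were the synthetase genes that fell against control at 48 h. Mars1 gave 698 in the control against 865 with lactacystin on U74A, and 1045 against 1316 and 1211 on U74Av2 at 24 h. For Mars1 at 48 h the signals were 692 against 461 on U74A, and 835 against 642 and 537 on U74Av2. Its lactacystin arrays lay above the control at 24 h and below it at 48 h in both designs. The change of Mars1 was 0.30 ± 0.13 (adjusted p = 0.146) at 24 h and -0.54 ± 0.13 (adjusted p = 0.0223) at 48 h, with a difference of -0.84 ± 0.18 (adjusted p = 0.0498). Without any array but lactacystin 24 h replicate 1, this difference missed the threshold (adjusted p from 0.0672 to 0.180). The fall at 48 h missed it without control 48 h replicate 1 (0.165), control 48 h replicate 2 (0.0820) or lactacystin 48 h replicate 2 (0.0584).

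Nars gave 1039.8 in the control against 1096 with lactacystin on U74A, and 1095 against 1463 and 1478 on U74Av2 at 24 h. At 48 h Nars gave 785 against 566 on U74A, and 962 against 649 and 693 on U74Av2. Again lactacystin lay above the control of its design at 24 h and below it at 48 h, by 0.27 ± 0.12 (adjusted p = 0.146) and -0.48 ± 0.12 (adjusted p = 0.0230). Yars gave 982 in the control against 962 with lactacystin on U74A, and 1644 against 1784 and 1752 on U74Av2 at 24 h, where the 2 designs went opposite ways, and 1103 against 777 on U74A, and 1651 against 1121 and 857 on U74Av2 at 48 h, where lactacystin lay lower on both. The change of Yars was 0.08 ± 0.15 (adjusted p = 0.775) at 24 h and -0.66 ± 0.15 (adjusted p = 0.0181) at 48 h. Without control 48 h replicate 1 or replicate 2 the adjusted p at 48 h was 0.110 and 0.172 for Nars and 0.119 and 0.127 for Yars, and for Nars it was 0.0637 without lactacystin 48 h replicate 1. All 3 fell from 24 h to 48 h under lactacystin, Nars by 1.04 ± 0.10 (adjusted p = 0.000145), Mars1 by 1.00 ± 0.11 (adjusted p = 0.000344) and Yars by 0.65 ± 0.13 (adjusted p = 0.00967), with control changes of -0.29 ± 0.13, -0.16 ± 0.14 and 0.08 ± 0.16, none past the threshold. For Yars that fall was lost without lactacystin 24 h replicate 2 (adjusted p = 0.0541) or replicate 3 (0.0536). A Yars probe set present on U74Av2 alone did not show the falls: it stood at 122 in the control against 116 and 163 with lactacystin at 24 h. At 48 h it stood at 130.2 against 113 and 153. On those 6 arrays its change was 0.01 ± 0.27 at 48 h (adjusted p = 0.983) and -0.05 ± 0.22 between the lactacystin groups (adjusted p = 0.901).

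For the remaining 8 synthetase genes that fell between the lactacystin groups, no change against control passed at either time. Aars, for alanine, gave 849 in the control against 884 with lactacystin on U74A, and 1639 against 2138 and 2156 on U74Av2 at 24 h. At 48 h Aars gave 832 against 633 on U74A, and 1224 against 918 and 954 on U74Av2. In both designs lactacystin stood above the control at 24 h and below it at 48 h, and the fall between the lactacystin groups was 0.94 ± 0.14 (adjusted p = 0.00191). Farsb, the beta subunit of the phenylalanine enzyme, gave 655 in the control against 897 with lactacystin on U74A, and 848 against 997 and 1087 on U74Av2 at 24 h. At 48 h Farsb gave 656 against 532 on U74A, and 754 against 600.4 and 619 on U74Av2. Lactacystin again stood above the control at 24 h and below it at 48 h on both designs, with a fall of 0.73 ± 0.10 (adjusted p = 0.000969) and a change at 24 h of 0.36 ± 0.11 (adjusted p = 0.0551). Lars, for leucine, gave 1175 in the control against 1523 with lactacystin on U74A, and 2041 against 2800.2 and 2563 on U74Av2 at 24 h. At 48 h Lars gave 1299 against 1156 on U74A, and 1857 against 1619 and 1339 on U74Av2, a fall of 0.70 ± 0.12 (adjusted p = 0.00414), beside a control change of 0.00 ± 0.15. Hars, for histidine, gave 582 in the control against 726 with lactacystin on U74A, and 599 against 785 and 759 on U74Av2 at 24 h. At 48 h Hars gave 542 against 514 on U74A, and 599 against 476 and 525 on U74Av2, a fall of 0.55 ± 0.10 (adjusted p = 0.00594). For Lars and Hars too, lactacystin stood above the control of its time at 24 h and below it at 48 h on both designs.

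Eprs, the fused enzyme for glutamate and proline, gave 849 in the control against 973 with lactacystin on U74A, and 894 against 1355 and 1295 on U74Av2 at 24 h. At 48 h Eprs gave 645 against 661 on U74A, and 808 against 872 and 652 on U74Av2. Its lactacystin arrays were above the control at 24 h and on both sides of it at 48 h, and it fell by 0.70 ± 0.13 (adjusted p = 0.00463) between the lactacystin groups. Iars, for isoleucine, gave 1188 in the control against 1053 with lactacystin on U74A, and 1645 against 2032 and 1896 on U74Av2 at 24 h. At 48 h Iars gave 1055 against 922 on U74A, and 1506 against 1181 and 1168 on U74Av2, and fell by 0.55 ± 0.12 (adjusted p = 0.0130). Gars, for glycine, gave 2064 in the control against 2140.0 with lactacystin on U74A, and 3668 against 3042 and 3462 on U74Av2 at 24 h. At 48 h Gars gave 1914 against 1597 on U74A, and 2631 against 2293 and 1862 on U74Av2, and fell by 0.57 ± 0.12 (adjusted p = 0.0102). For both Iars and Gars the designs differed in direction at 24 h, and both designs were lower with lactacystin at 48 h. The fall of Iars was lost without lactacystin 24 h replicate 2 (adjusted p = 0.0803) or replicate 3 (0.0681), and that of Gars without lactacystin 24 h replicate 3 (0.0598).

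Wars, for tryptophan, gave 989.8 in the control against 1162 with lactacystin on U74A, and 531 against 793 and 734 on U74Av2 at 24 h. At 48 h Wars gave 867 against 833 on U74A, and 468 against 431 and 515 on U74Av2, and fell by 0.59 ± 0.11 (adjusted p = 0.00668). A further Wars probe set fell by 0.70 ± 0.17 (adjusted p = 0.0210) as well, but its control change was -0.73 ± 0.20 (adjusted p = 0.770), not past the threshold. At 24 h that probe set stood at 1439.9 in the control and 1917 with lactacystin on U74A, and 393 against 344 and 433 on U74Av2, so that the lactacystin arrays of U74Av2 lay on both sides of the control. A Wars probe set present on U74Av2 alone did not show the fall: it stood at 184 and 345 with lactacystin at 24 h and at 211 and 269 at 48 h, with a change of -0.08 ± 0.28 (adjusted p = 0.885 in limma on those 6 arrays).

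The 4 synthetases that passed in none of the 5 comparisons were Cars (cysteine), Kars (lysine), Qars (glutamine) and Vars (valine). Their changes lay between -0.25 ± 0.19 (Kars) and 0.27 ± 0.20 (Vars) at 24 h, and between -0.32 ± 0.22 (Cars) and 0.35 ± 0.19 (Kars) at 48 h. Kars was a weakly measured gene, at 71.7 to 208 over the 10 arrays, and its change between the lactacystin groups of 0.15 ± 0.17 (adjusted p = 0.615) was the highest among the 30. Qars, which was measured at 807 to 1210.2 over the 10 arrays, had a change of 0.14 ± 0.10 (adjusted p = 0.442) there. Cars and Vars lay on the other side of 0, at -0.44 ± 0.20 (adjusted p = 0.170) and -0.45 ± 0.18 (adjusted p = 0.131). The errors of Cars, Kars and Vars were wide, and that of Qars was narrower. A p that misses the threshold does not show that these genes stayed level.

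Among the enzymes that make amino acids, Psat1 rose and Asns and Mthfd2 fell at 48 h. Psat1, the aminotransferase of serine synthesis, gave 3303 in the control against 4164 with lactacystin on U74A, and 4406 against 5113 and 5131 on U74Av2 at 24 h. Psat1 at 48 h gave 2443 against 3780.2 on U74A, and 3064 against 4140.2 and 4300.3 on U74Av2. Every lactacystin array stood above the control of its design at both times. The change was 0.27 ± 0.09 (adjusted p = 0.0702) at 24 h and 0.52 ± 0.09 (adjusted p = 0.00548) at 48 h, and Psat1 was the only member that rose at the later time. The call at 48 h was lost without either control of 48 h (adjusted p = 0.0601 and 0.0601). From 24 h to 48 h Psat1 had a change of -0.47 ± 0.10 (adjusted p = 0.419) in the controls and -0.23 ± 0.08 (adjusted p = 0.0951) with lactacystin.

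Psph, the phosphatase that ends the same pathway, gave 1005 in the control against 1589 with lactacystin on U74A, and 1795 against 2210.2 and 2091 on U74Av2 at 24 h. At 48 h Psph gave 1035 against 1057 on U74A, and 1267 against 1528 and 1625 on U74Av2. Lactacystin arrays were higher at both times on both designs, at 48 h by only a small margin on U74A. Psph rose by 0.44 ± 0.12 (adjusted p = 0.0377) at 24 h and had a change of 0.18 ± 0.12 (adjusted p = 0.434) at 48 h. At 24 h the call was lost without control replicate 1 (adjusted p = 0.282), any lactacystin array of 24 h (0.0687 to 0.108) or lactacystin 48 h replicate 1 (0.0512). Psph fell by 0.48 ± 0.11 (adjusted p = 0.0174) between the lactacystin groups, a call lost without lactacystin 24 h replicate 2 (0.0730) or 3 (0.0536), or lactacystin 48 h replicate 1 (0.0566) or 3 (0.0586).

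Asns, asparagine synthetase, whose promoter is printed above with its core close to the start, had a change at 24 h smaller than its error on its brightest probe set. A further probe set, given below, had a change of 0.37 ± 0.19 at 24 h on the U74Av2 arrays, which hold 1 control of that time. Asns gave 4059 in the control against 3739.7 with lactacystin on U74A, and 6209 against 6511 and 6722 on U74Av2 at 24 h, below the control on U74A and above it on U74Av2. Asns at 48 h gave 3369 against 2103 on U74A, and 4548 against 3348 and 3576 on U74Av2, lower with lactacystin on both. The change was 0.01 ± 0.10 (adjusted p = 0.952) at 24 h and -0.52 ± 0.10 (adjusted p = 0.00932) at 48 h, and between the lactacystin groups it fell by 0.89 ± 0.09 (adjusted p = 0.000177), with a control change of -0.36 ± 0.11 (adjusted p = 0.820). Without control 48 h replicate 1 the fall at 48 h had an adjusted p of 0.116. On the 6 U74Av2 arrays a further Asns probe set stood at 424 in the control and 508.0 and 611 with lactacystin at 24 h, and at 233 against 183 and 163 at 48 h, a fall of 1.53 ± 0.15 between the lactacystin groups (adjusted p = 0.00478 in limma on these arrays alone, 2 residual degrees of freedom). Its control change was -0.78 ± 0.21 (adjusted p = 0.443).

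Mthfd2, a mitochondrial enzyme of one-carbon metabolism that uses the folate units made from serine, gave 1247 in the control against 1071 with lactacystin on U74A, and 2367 against 2062 and 2154 on U74Av2 at 24 h. Mthfd2 at 48 h gave 1414 against 643 on U74A, and 1635 against 1195 and 923 on U74Av2. Lactacystin lay below the control on both designs at both times, by a narrow margin at 24 h and a wide margin at 48 h. The change was -0.15 ± 0.17 (adjusted p = 0.603) at 24 h and -0.86 ± 0.17 (adjusted p = 0.00826) at 48 h, the latter with an adjusted p of 0.106 without control 48 h replicate 1, and the fall between the lactacystin groups was 0.89 ± 0.15 (adjusted p = 0.00310). Aldh18a1, which makes the precursor of proline and ornithine, gave 173 in the control against 126 with lactacystin on U74A, and 388 against 343 and 317 on U74Av2 at 24 h. At 48 h Aldh18a1 gave 108 against 111 on U74A, and 186 against 192 and 149 on U74Av2. Lactacystin lay below the control at 24 h on both designs. The controls differed between the times about as much as the lactacystin arrays did: the change from 24 h to 48 h was -0.61 ± 0.17 (adjusted p = 0.0426) with lactacystin and -0.75 ± 0.21 (adjusted p = 0.770) in the controls. Its call held only with all arrays or without lactacystin 24 h replicate 1 or lactacystin 48 h replicate 3, and was lost without any other array (adjusted p from 0.0515 to 0.172). Shmt1, the cytosolic enzyme that interconverts serine and glycine, passed in none of the comparisons, with signals of 124 to 201 and changes of 0.16 ± 0.19 at 24 h and 0.24 ± 0.19 at 48 h.

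Among the transporters, Slc7a3 had the largest fall between the lactacystin groups and opposite calls at the times of 24 h and 48 h. It encodes CAT-3, a carrier of arginine, lysine and ornithine found mainly in brain. Slc7a3 gave 468 in the control against 749 with lactacystin on U74A, and 886 against 1127 and 1209.7 on U74Av2 at 24 h. Slc7a3 at 48 h gave 273 against 149 on U74A, and 504 against 279 and 228 on U74Av2. Lactacystin arrays lay above the control of their design at 24 h and below it at 48 h, and no array of one time reached those of the other within a design and agent. The rise at 24 h was 0.50 ± 0.13 (adjusted p = 0.0282), the fall at 48 h 0.85 ± 0.13 (adjusted p = 0.00266), and the difference between the effects -1.34 ± 0.19 (adjusted p = 0.00794). Between the lactacystin groups it fell by 2.09 ± 0.12 (adjusted p = 7.26e-06), to 0.235 of its 24 h level on the scale with 32 added, and in the controls it had a change of -0.74 ± 0.14 (adjusted p = 0.400). The fall between the lactacystin groups had the lowest adjusted p of all members and held without each array. The rise at 24 h was lost without either control of 24 h (adjusted p = 0.169 and 0.101) or any lactacystin array of 24 h (0.0531 to 0.0911). The fall at 48 h was lost without control 48 h replicate 2 (0.0522), and the difference without control 24 h replicate 1 (0.0503) or control 48 h replicate 1 (0.0507).

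Slc3a2 and Slc7a5 encode the heavy and the light chain of a heterodimer (CD98 with LAT1) that brings in leucine and other large neutral amino acids in exchange for others. Slc3a2 gave 3086 in the control against 4839 with lactacystin on U74A, and 4628 against 6146 and 7028 on U74Av2 at 24 h. At 48 h Slc3a2 gave 2628 against 2716 on U74A, and 3693 against 3355 and 4049.9 on U74Av2. Its lactacystin arrays stood above the control at 24 h and on both sides of it at 48 h, with changes of 0.57 ± 0.11 (adjusted p = 0.00515) and 0.01 ± 0.11 (adjusted p = 0.956). Without control 24 h replicate 1 the rise had an adjusted p of 0.0529. Slc7a5 gave 2629.7 in the control against 2428 with lactacystin on U74A, and 5228 against 6192 and 6704 on U74Av2 at 24 h, where the designs differed in direction, and 2320.2 against 1647 on U74A, and 3449 against 2602 and 2124 on U74Av2 at 48 h, lower with lactacystin on both. The change of Slc7a5 was 0.18 ± 0.19 (adjusted p = 0.566) at 24 h and -0.58 ± 0.19 (adjusted p = 0.0736) at 48 h, neither past the threshold. From 24 h to 48 h under lactacystin Slc3a2 fell by 0.83 ± 0.10 (adjusted p = 0.000363) and Slc7a5 by 1.15 ± 0.17 (adjusted p = 0.00137), with control changes of -0.28 ± 0.12 and -0.39 ± 0.20, neither past the threshold.

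Slc38a2 (SNAT2), a sodium-coupled carrier of small neutral amino acids such as glutamine, gave 1351 in the control against 1272 with lactacystin on U74A, and 1119 against 1136 and 1233 on U74Av2 at 24 h. At 48 h Slc38a2 gave 1005 against 970.0 on U74A, and 967 against 851 and 1008 on U74Av2. Lactacystin arrays lay on either side of the control at both times. Against control it had a change of -0.00 ± 0.12 (adjusted p = 1.000) and -0.05 ± 0.12 (adjusted p = 0.865). Its fall between the lactacystin groups, 0.36 ± 0.10 (adjusted p = 0.0484), was about as large as the control change of -0.31 ± 0.13 (adjusted p = 0.888), and was lost without any array but lactacystin 48 h replicate 2 (0.0530 to 0.184). Slc1a4 and Slc1a5, exchangers of alanine, serine and cysteine and of glutamine, passed in none of the comparisons. Slc1a4 had a change of -0.50 ± 0.22 (adjusted p = 0.175) at 48 h, and Slc1a5, at 11.2 to 82.5 over the 10 arrays, by -0.14 ± 0.32 (adjusted p = 0.846). The latter was close to the filter, where the error is wide.

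The cystine carrier Slc7a11 and the arginine carrier Slc7a1 lay below the filter and were not tested. Slc7a11, the promoter of which is printed above with its 2 matches, gave 30.8 in the control against 55.9 with lactacystin on U74A, and 8.97 against 33.3 and 35 on U74Av2 at 24 h. At 48 h Slc7a11 gave 21.1 against 7 on U74A, and 26.4 against 31.4 and 42.1 on U74Av2. With lactacystin at 24 h its signals were above the control on both designs, the lowest at 33.3, close to the 32 added before the logarithm. Both controls of 24 h and most signals of 48 h lay under that 32. Slc7a1 lay between 3.75 and 18.7 on all 10 arrays. Of the genes measured on U74Av2 alone, Farsa, the alpha subunit that pairs with Farsb, stood at 631 in the control and 583 and 598 with lactacystin at 24 h, and at 555 against 369 and 393 at 48 h. It fell by 0.59 ± 0.11 between the lactacystin groups (adjusted p = 0.0302 in limma on the 6 arrays, in which 8.6% of 8696 probe sets were called). Its change at 48 h was -0.51 ± 0.14 (adjusted p = 0.0950). Phgdh, the first enzyme of serine synthesis, stood at 55.7 to 79.8 and Shmt2, the mitochondrial serine and glycine enzyme, at 367 to 487, and neither passed in any comparison. Phgdh was weakly measured and its error was wide, with changes of 0.12 ± 0.30 at 24 h and 0.11 ± 0.30 at 48 h. These 6 arrays hold 1 control at each time, and a missed threshold on them does not show that a gene stayed level.

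The genes around the pathway were drawn up as lists of their own. Their counts stand beside shares over all probe sets of 8.15% higher and 6.63% lower at 24 h, 6.76% and 3.57% at 48 h, and 6.19% and 5.31% between the lactacystin groups. Of 13 tested regulators of the amino acid response (22 listed), 3 rose and 1 fell at 24 h. Atf3, a stress-induced transcription factor, rose by 2.34 ± 0.29 (adjusted p = 0.000332), with its other probe set at 0.89 (adjusted p = 0.0590). Cebpb, a C/EBP factor, rose by 1.61 ± 0.17 (adjusted p = 0.000104) and Ddit3 (CHOP), which is induced when eIF2 is phosphorylated, by 1.22 ± 0.16 (adjusted p = 0.000496). These 3 rises held without each array in turn. Atf2, named after its values were seen, fell by 0.43 ± 0.13 (adjusted p = 0.0464), a call that held only without lactacystin 24 h replicate 2 or lactacystin 48 h replicate 2 or 3 (otherwise 0.0563 to 0.224). Atf4 itself had a change of -0.12 ± 0.15 (adjusted p = 0.643) at 24 h and fell by 0.99 ± 0.15 (adjusted p = 0.00221) at 48 h, when it was the 1 regulator that passed, also without each array in turn. At 48 h the changes of Cebpb and Ddit3 were 0.45 ± 0.17 (adjusted p = 0.116) and 0.08 ± 0.16 (adjusted p = 0.824). Their effects differed between the times by -1.16 ± 0.23 (adjusted p = 0.0389) and -1.14 ± 0.22 (adjusted p = 0.0294), calls that rested on single arrays. That of Cebpb held only without lactacystin 24 h replicate 1 or lactacystin 48 h replicate 2 or 3, and otherwise had an adjusted p of 0.0579 to 0.154. That of Ddit3 held without these or control 48 h replicate 2, and otherwise had 0.0666 to 0.146. Between the lactacystin groups 7 of the 13 fell and none rose (limma; 1 higher at unadjusted p under 0.05), among them Atf4, Cebpb, Ddit3 and Atf3. Their changes were -1.03 ± 0.13 (adjusted p = 0.000602), -1.56 ± 0.15 (adjusted p = 0.000126), -1.32 ± 0.14 (adjusted p = 0.000195) and -1.55 ± 0.25 (adjusted p = 0.00271), and all 4 calls held without each array in turn. The kinase genes Eif2ak3 and Eif2ak4 passed in no comparison.

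**Figure D4:**
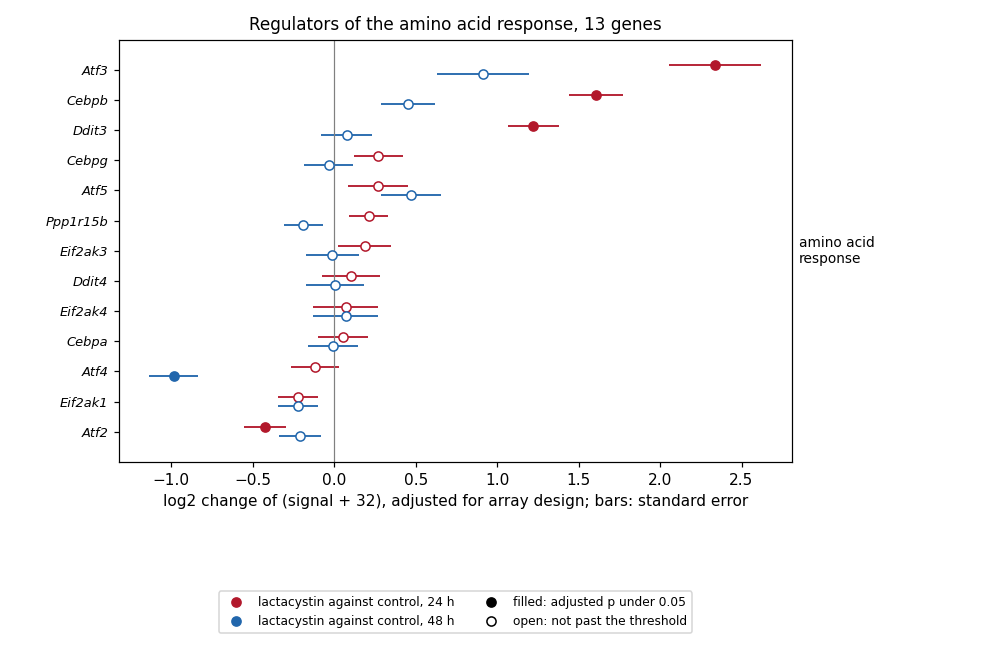
Log2 change of lactacystin against control at 24 h (red) and 48 h (blue) for the 13 tested regulators of the amino acid response, adjusted for array design, with bars of 1 SE. Filled points passed the adjusted p of 0.05: Atf3, Cebpb and Ddit3 lie at 1.22 or more at 24 h, Atf2 at -0.43, and Atf4 at -0.99 at 48 h.

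Among 6 tested genes of the mitochondrial synthetases and of the synthetase complex (21 listed), Rars2 rose by 0.50 ± 0.11 (adjusted p = 0.0108) and Iars2 by 0.49 ± 0.14 (adjusted p = 0.0418) at 24 h. None of the 6 passed the threshold at 48 h (limma, 0 at unadjusted p under 0.05). The rise of Rars2 was lost without control 24 h replicate 2 (adjusted p = 0.160), and that of Iars2 without either control of 24 h (0.121 and 0.268), any lactacystin array of 24 h (0.0600 to 0.127) or lactacystin 48 h replicate 1 (0.0534). Rars2, the mitochondrial counterpart of Rars, fell by 0.39 ± 0.10 (adjusted p = 0.0268) between the lactacystin groups, a call lost without lactacystin 24 h replicate 2 or 3 (0.123 and 0.128) or any lactacystin array of 48 h (0.0620 to 0.0722). Tars2 had a change of 0.32 ± 0.25 (adjusted p = 0.434) and Sars2 by -0.25 ± 0.13 (adjusted p = 0.223) at 24 h. None of the 10 tested transporters outside the set (21 listed) rose at 24 h or 48 h (limma; 0 and 1 higher at unadjusted p under 0.05). Slc1a1, a neuronal carrier of glutamate and cysteine, fell by 0.46 ± 0.14 (adjusted p = 0.0470) at 24 h and by 0.65 ± 0.14 (adjusted p = 0.0144) at 48 h, and the taurine carrier Slc6a6 by 0.48 ± 0.15 (adjusted p = 0.0469) at 24 h. At 24 h the call of Slc1a1 held only without one or other control of 48 h (otherwise 0.0512 to 0.229), and that of Slc6a6 only without control 24 h replicate 2 or lactacystin 48 h replicate 3 (otherwise 0.0506 to 0.389). The fall of Slc1a1 at 48 h was lost without control 48 h replicate 2 (0.195), and a further Slc6a6 probe set had -0.37 ± 0.31 (adjusted p = 0.456) at 24 h. The glial glutamate carrier Slc1a2 had a change of 0.56 ± 0.25 (adjusted p = 0.192) at 48 h and the cystine carrier Slc7a9 by -0.30 ± 0.26 (adjusted p = 0.473) at 24 h. Between the lactacystin groups the glycine carrier Slc6a9, named after its values were seen, fell by 0.67 ± 0.15 (adjusted p = 0.0167), which was lost without lactacystin 24 h replicate 2 (0.0730) or 3 (0.0847) or lactacystin 48 h replicate 1 (0.0610).

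Of 13 tested enzymes of amino acid and folate metabolism outside the set (34 listed), 1 rose at 24 h, a share near that of all probe sets (8.15%), and 3 rose and 1 fell at 48 h. Gss, glutathione synthetase, rose by 0.82 ± 0.16 (adjusted p = 0.00597) and 0.68 ± 0.16 (adjusted p = 0.0204). Gldc, of the glycine cleavage system, rose by 0.88 ± 0.14 (adjusted p = 0.00304) at 48 h, and Oat, which links ornithine to glutamate and proline, by 0.81 ± 0.13 (adjusted p = 0.00237). Bcat1, the cytosolic aminotransferase of branched-chain amino acids, named after its values were seen, fell by 0.52 ± 0.12 (adjusted p = 0.0219). Arg2, a mitochondrial arginase, had a change of -0.61 ± 0.21 (adjusted p = 0.100) at 48 h. The call of Oat at 48 h held without each array in turn. Those of Gss, Gldc and Bcat1 did not: without control 48 h replicate 2 their adjusted p at 48 h was 0.242, 0.0639 and 0.129, and without control 48 h replicate 1 that of Gss was 0.0589 and that of Bcat1 0.140. Gss also missed the threshold without lactacystin 48 h replicate 2 (0.0556), and Bcat1 without lactacystin 48 h replicate 1 (0.0640) or 2 (0.0574). At 24 h Gss had an adjusted p of 0.0661 without control 24 h replicate 1. Between the lactacystin groups 4 of the 13 rose, Oat by 1.27 ± 0.11 (adjusted p = 6.88e-05), Gldc by 0.74 ± 0.13 (adjusted p = 0.00342), Glul, glutamine synthetase of astrocytes and also among the astrocyte markers, by 0.99 ± 0.20 (adjusted p = 0.0102) and Glud1, glutamate dehydrogenase, by 0.66 ± 0.17 (adjusted p = 0.0270), while Bcat1 fell by 0.69 ± 0.11 (adjusted p = 0.00247). Of these, Glul was lost without lactacystin 24 h replicate 3 (0.0543), and Glud1 without lactacystin 24 h replicate 2 or 3 (0.105 and 0.111) or lactacystin 48 h replicate 1 or 2 (0.0638 and 0.0868).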

How the data were processed

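RNA of 10 samples (7 µg per labels) was hybridised to Affymetrix U74A (4 arrays) or U74Av2 (6 arrays). The deposited values are linear signal intensities that the authors computed with MAS5, per the submitters' processing notes, and the version is not given in the sources used. The tables hold 10043 probe sets (U74A) and 12488 (U74Av2). The 66 shared control probe sets were left out, and each array was scaled over the other 9977 shared ones to a 2% trimmed mean of 500. After adding 32, values were taken to log2. The lowest 30% by mean of these log2 values (2993 probe sets) were dropped, up to a mean that corresponds to a signal of 51.3. The remaining 6984 were tested with limma 3.58.1 in R 4.3.3, with 4 groups and array design in the model (5 residual degrees of freedom). Empirical Bayes with a trend and Benjamini-Hochberg adjustment were used. The scripts were tested on simulated data.

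The platform annotation gave 1 gene symbol for 8724 of the 9977 probe sets, several for 346 and none for 907. Of 10855 probe sets with 1 symbol over both tables, 10839 were updated by Entrez identifier. Where a gene had several probe sets, the brightest by mean signal was used for it. Members with an adjusted p under 0.05 in any of 5 comparisons, and the 2 of each class with the largest change at each time, are given array by array. Of each other list the called genes are counted and up to 4 with the largest change are named. The members, the lists and the tests were chosen with earlier results of these data known. The number of arrays limits the precision, and 19.9% to 27.8% of an array's values lay under the 32 added. No more than 0.341% of values were identical between any 2 arrays. Alternatives changed the scaling, pseudocount, filter, model and arrays used.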

Additional observations from a re-analysis of the deposited data

Results flagged for a closer look

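For 3 member genes the effect of lactacystin differed between the times by limma's test of the difference itself (adjusted over 6984 probe sets). The effect at 48 h minus that at 24 h was -1.34 for Slc7a3, -1.24 for Rars and -0.84 for Mars1. For Slc7a3 and Mars1 the effect went from above to below 0, and for Rars from a rise to near 0. Each of these calls was lost when some single array was left out.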

How the results depend on the processing

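The 38 calls of member genes, each recomputed under the alternative settings, gave 948 values, of which 772 kept the call, 176 lost it and 0 reversed in direction. Part of these values could not reverse. Other filters and trend settings leave the size of a change as it was, and so does leaving out a control between the lactacystin groups. Dropping array design or adding the replicate block also leaves it unchanged between the lactacystin groups and for the difference of effects. The kept values include the median over the Wars probe sets, which carries no test. Leaving out 1 array at a time gave 2 to 7 member genes and 310 to 1102 probe sets at 24 h, 1 to 9 and 211 to 824 at 48 h, 0 to 7 and 5 to 188 for the difference of effects, 16 to 22 and 324 to 827 between the lactacystin groups, and 0 and 0 to 2 between the controls (0 of each in the full fit).

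Without array design in the model, calls at 24 h, at 48 h, for the difference and between the lactacystin groups were 250, 113, 2 and 133 probe sets and 1, 0, 0 and 6 member genes. On the U74Av2 arrays alone the first 3 were 561, 384 and 12 probe sets and 2, 3 and 1 member genes. Scaling to a common median gave 13 member genes at 48 h, and 154 probe sets and 10 member genes for the difference. The difference had 48 probe sets without the filter and 37 without the trend. With its own groups alone, 48 h had 448 probe sets, and the difference, which needs all groups, was not run so.

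Whether replicate numbers pair the samples could not be decided, because replicate number and array design largely coincide. Deviations of same-numbered arrays correlated between -0.62 and 0.67, following array design. With the replicate block beside array design 3 member genes passed at 24 h. With the replicate block in its place 171, 81, 0 and 57 probe sets and 1, 0, 0 and 2 member genes passed in the same 4 comparisons. Signals near the 32 added limit what can be measured, and there were 2 controls per time.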
